A study of Mus musculus with 4 samples.

Results

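The collagen genes of the mouse hypothalamus were examined by the class of nucleus that holds their transcripts and by library. All 44 genes whose symbol names a collagen chain (Col, a type number, a and a chain number) were taken from the 33696 genes of the deposited tables, with a minimum of 20 unique molecular identifiers (UMIs) summed over the 4 tables. The minimum removed none of them: the lowest member, Col17a1, had 84 UMIs over the 4 tables, and the next, Col3a1, had 100.

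The series is single-nucleus RNA sequencing of the hypothalamus of wild-type C57BL/6J mice described as conventional and SPF. The title of every library, ImP and vehicle, also carries the word Baseline. The 2 ImP libraries, ImP 3 and ImP 4, come from mice that received 350 µg of imidazole propionate a day, a bacterial product of histidine, for 2 weeks from an osmotic pump in the peritoneal cavity. The 2 vehicle libraries, vehicle 1 and vehicle 2, come from mice that received vehicle over the same 2 weeks, and the dilution described for ImP is water with 1% DMSO. All mice were perfused and the microdissected, snap-frozen tissue was used. The sources used here state neither age nor sex, nor how many animals stand behind a library.

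Collagens are extracellular or membrane-bound proteins built from chains wound into a triple helix. Fibrillar collagens form the cables of connective tissue, type IV collagens form the sheet of basement membranes, fibril-associated collagens decorate the cables, and transmembrane collagens sit in the cell surface and can be shed. In the brain, interstitial matrix is sparse and fibrillar collagens are best known from the meninges and the vessel wall, whereas several non-fibrillar collagens are known to be made by neurons and glia and to act in axon guidance and synapse formation.

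Nuclei were classed by marker genes that include no collagen gene. After filtering, 14757 and 15725 nuclei were kept in ImP 3 and ImP 4, against 10917 and 13023 in vehicle 1 and vehicle 2, with median depths of 2852 and 2820 UMIs, against 3757 and 3179 UMIs. Neuronal nuclei numbered 9751 and 9990 in ImP 3 and ImP 4, against 7659 and 8942 in vehicle 1 and vehicle 2. Glial nuclei (astrocytes, tanycytes, oligodendrocytes and their precursors, and microglia or macrophages) numbered 3155 and 3236 in ImP 3 and ImP 4, against 2367 and 2712 in vehicle 1 and vehicle 2. Fibroblast and vascular nuclei were rare, with 73 and 83 nuclei in ImP 3 and ImP 4, against 33 and 43 in vehicle 1 and vehicle 2. Of these, fibroblast nuclei numbered 42 and 47 in ImP 3 and ImP 4, against 7 and 13 in vehicle 1 and vehicle 2, while endothelial nuclei lay between 16 and 22 and mural nuclei between 8 and 18 a library. In fibroblast nuclei their own 12 markers summed to 8439 and 7605 CPM in ImP 3 and ImP 4, against 8252 and 6999 CPM in vehicle 1 and vehicle 2. The nuclei were gated on these markers, so this sum cannot test the class. The 9 endothelial markers summed there to 170.2 and 207 CPM in ImP 3 and ImP 4, against 194 and 172 CPM in vehicle 1 and vehicle 2. Neuronal, tanycyte and pituitary marker sums in these nuclei are given with Col25a1 below. The neuronal sum was above the endothelial one in every library. The label of hypothalamus does not cover 317 nuclei of ImP 4 that carry pituitary hormone genes, against 3 in ImP 3, 2 in vehicle 1 and 0 in vehicle 2. Libraries shared between 39 and 76 barcodes in pairs. In tissue summed over nuclei, fewer nuclei of a class and less RNA per nucleus cannot be told apart.

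Most collagen UMIs were in neurons, as were most UMIs of all genes. Of 128524 collagen UMIs in kept nuclei, 81.4% were in neuronal nuclei, 8.20% in glial nuclei and 0.591% in fibroblast and vascular nuclei. These classes held 83.7%, 9.34% and 0.175% of the UMIs of all genes, in the same order of classes, and the rest lay in nuclei of no class, of 2 classes or of the ependymal and pituitary gates. For 34 of the 44 genes over 50% of UMIs came from neurons, for 2 genes from glia and for 0 genes from fibroblast and vascular nuclei. This count was not read against all genes. The neuronal share was 96.2% for Col19a1, 94.6% for Col6a4 and 93.4% for Col8a1, and it was 20.1% for Col9a1, whose glial share was 57.0%. Col3a1, the chain of type III fibrils, had the highest fibroblast and vascular share, 26.5%, from a class that held 0.175% of all UMIs. For Col1a2 that share was 7.55%, for Col4a6 8.63% and for Col13a1 8.42%.

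**Figure D1:**
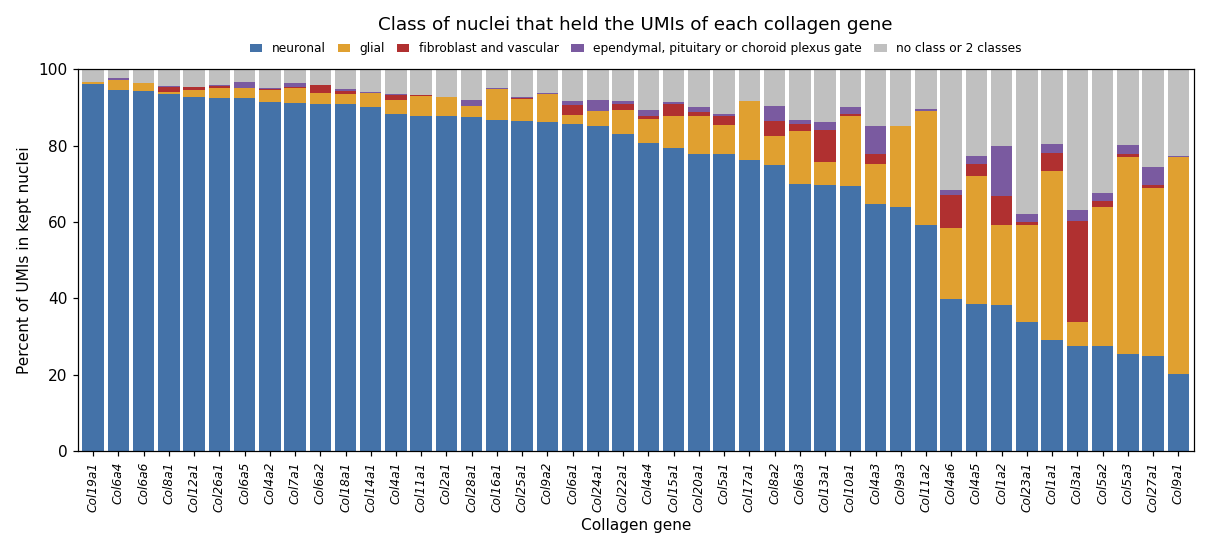
Percent of the UMIs of each of the 44 collagen genes that lay in neuronal, glial, fibroblast and vascular, other gated, and unclassed or mixed nuclei, 4 libraries pooled. The neuronal share runs down to 20.1% for Col9a1, and Col3a1 shows the largest fibroblast and vascular share, 26.5%.

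The level of a gene within a class, given as the gene's UMIs per 1000000 UMIs of the class (CPM), shows another order than the share of UMIs. Values of the same gene are compared between classes, because these levels are not corrected for gene length; the 5 highest members of a class by mean CPM are named only to choose what is described. Summed UMIs of each library and class were tested with edgeR's quasi-likelihood test with the library as a block, and p-values were adjusted over all genes. In glial against neuronal nuclei, 43 of 44 members passed the filter on low counts, of which 13 were higher and 22 lower in glia at an adjusted p under 0.05, 35 in all, where 71.9% of all 19372 genes differed, 36.2% higher and 35.7% lower. In fibroblast and vascular against neuronal nuclei 42 members passed the filter, 18 were higher and 3 lower, where 23.7% of all 18104 genes differed, 9.13% higher and 14.5% lower. In fibroblast and vascular against glial nuclei 22 members passed the filter, 12 were higher and 2 lower, where 18.9% of 13271 genes differed, 7.14% higher and 11.7% lower. Members that passed the filter through the class in which they are high had to differ, so these counts describe the members and support nothing further.

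**Figure D2:**
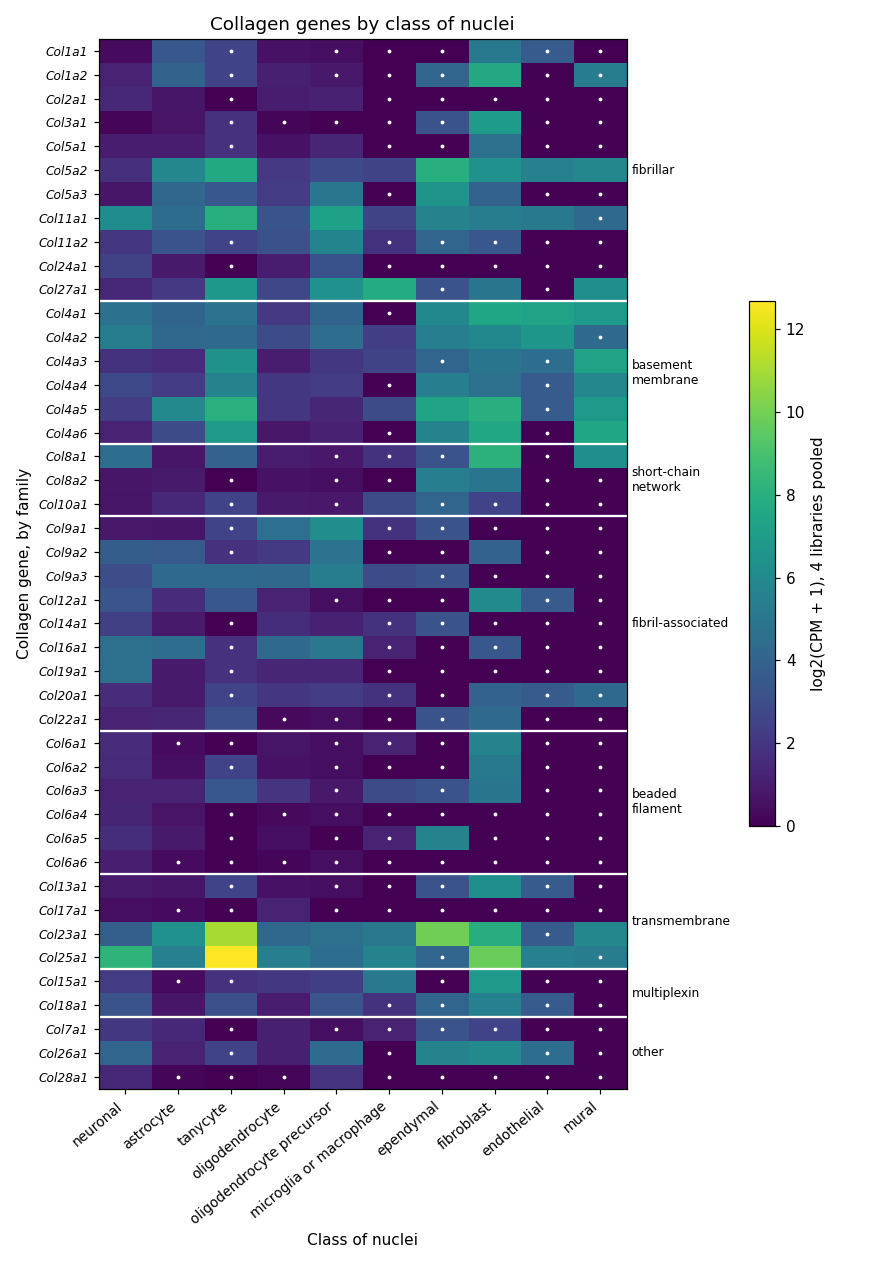
Level of the 44 collagen genes, ordered by family, in 10 classes of nuclei, as log2(CPM + 1) with the 4 libraries pooled; a white dot marks fewer than 3 UMIs. The brightest cells are Col25a1 and Col23a1 in tanycytes, at 6529.7 and 2068 CPM, and most cells of the endothelial and mural columns rest on fewer than 3 UMIs.

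Among the 11 fibrillar collagens, Col3a1 and Col1a2, chains of interstitial cables, were high in fibroblast and vascular nuclei. Col1a1, the partner chain of Col1a2, averaged 16.9 ± 19.5 CPM there on 8 UMIs, with 0 UMIs in vehicle 1 and vehicle 2. Col5a2, Col11a1 and Col27a1 were each higher in more than 1 glial class than in other glia. Col3a1 averaged 80.2 ± 50.6 CPM in fibroblast and vascular nuclei, 0.320 ± 0.268 CPM in glia and 0.165 ± 0.0763 CPM in neurons (SD, n = 4 libraries each). All 26 of its UMIs in that class were in fibroblasts, with 0 UMIs in 123 endothelial and mural nuclei, where 0 UMIs allow up to 21.4 CPM by counting error alone. A Col3a1 UMI was found in 18 of 109 fibroblast nuclei (16.5%) and in 26 of 36342 neurons (0.0715%), although fibroblasts were shallower, with median depths of 1647 and 3976 UMIs. Whether the share in neurons is background was not tested. Col1a2, a chain of type I collagen, was higher in fibroblast and vascular nuclei than in neurons (log2 fold change 5.96, SE 0.51, adjusted p = 2.16e-29) and than in glia (log2 fold change 3.90, SE 0.44, adjusted p = 4.73e-17).

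Astrocytes also held the type I chains. Col1a2 averaged 14.9 ± 4.99 CPM in astrocytes, and a UMI was found in 100 of 4536 astrocytes (2.20%), against 9 of 5063 oligodendrocytes (0.178%), whose median depths were 1416 and 1363 UMIs. In astrocytes against other glia Col1a2 was higher (log2 fold change 3.67, SE 0.37, adjusted p = 1.68e-08), and so was Col1a1, its partner chain (log2 fold change 3.86, SE 0.43, adjusted p = 8.85e-08). Without ImP 4 the Col1a2 value was 4.88. Col5a2, a chain of type V collagen, which limits the width of fibrils, was among the 5 highest glial members, at 22.6 and 27.8 CPM in ImP 3 and ImP 4, against 34.5 and 30.4 CPM in vehicle 1 and vehicle 2. It was higher in glia than in neurons (log2 fold change 3.50, SE 0.14, adjusted p = 1.21e-11) and in astrocytes than in other glia (log2 fold change 2.31, SE 0.16, adjusted p = 2.44e-11).

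Col11a1, a chain of the type XI collagen known from cartilage, was among the 5 highest members of both neurons and glia. In neurons it stood at 67.3 and 66.3 CPM in ImP 3 and ImP 4, against 84.2 and 69.4 CPM in vehicle 1 and vehicle 2. In glia it stood at 38.8 and 40.2 CPM in ImP 3 and ImP 4, against 32.6 and 41.4 CPM in vehicle 1 and vehicle 2, and the groups overlapped there. Within glia it was high in oligodendrocyte precursors, at 154 ± 7.35 CPM, and tanycytes, at 239 ± 36.2 CPM; in precursors against other glia the log2 fold change was 3.09 (SE 0.14, adjusted p = 2.86e-15). Its partner Col11a2 was also higher in precursors (log2 fold change 2.84, SE 0.20, adjusted p = 2.60e-11). Col27a1, a fibrillar chain of cartilage, was highest in microglia or macrophages, at 218 ± 35.4 CPM, against 1.68 ± 0.301 CPM in neurons; in microglia against other glia the log2 fold change was 3.36 (SE 0.19, adjusted p = 7.74e-28). It was higher in precursors than in other glia as well (log2 fold change 2.41, SE 0.15, adjusted p = 1.71e-12). Col5a3 was higher in glia than in neurons by 4.10 on the log2 scale (adjusted p = 8.38e-11).

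The 6 type IV chains, the sheet-forming collagens of basement membranes, differed in where they were high: Col4a1 and Col4a2 were lower in glia than in neurons, Col4a5 and Col4a6 were higher in glia, and Col4a3 was high in tanycytes. The gene pair Col4a1 and Col4a2 encodes the chains of the widespread type IV network and is transcribed in opposite directions from a shared start region; their promoter windows in RefSeq, on the build GRCm38.p6, are shown because the pair shares its start region and both genes were lower in glia than in neurons. The windows run from 250 bases before to 50 bases after the annotated start, at chr8:11312777-11313076 on the minus strand for Col4a1 and chr8:11312555-11312854 on the plus strand for Col4a2, and the 78 bases that both windows cover are in capitals, each on its gene's own strand.
Col4a1: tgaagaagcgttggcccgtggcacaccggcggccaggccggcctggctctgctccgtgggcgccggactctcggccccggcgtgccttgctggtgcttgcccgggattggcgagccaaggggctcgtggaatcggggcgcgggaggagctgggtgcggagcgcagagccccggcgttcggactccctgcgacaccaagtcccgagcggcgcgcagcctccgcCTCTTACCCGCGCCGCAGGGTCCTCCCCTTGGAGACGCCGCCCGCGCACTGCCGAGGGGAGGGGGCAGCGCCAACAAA
Col4a2: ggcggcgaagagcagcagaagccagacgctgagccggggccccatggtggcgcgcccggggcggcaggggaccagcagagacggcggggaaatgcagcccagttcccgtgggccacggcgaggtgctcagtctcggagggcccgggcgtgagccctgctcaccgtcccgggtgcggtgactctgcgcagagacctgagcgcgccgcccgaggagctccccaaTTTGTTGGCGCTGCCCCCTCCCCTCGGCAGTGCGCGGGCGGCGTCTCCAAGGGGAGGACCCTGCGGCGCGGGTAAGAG
A search of both strands for the GC box GGGCGG found 1 match in the Col4a1 window and 3 in the Col4a2 window, and 35.7% of all 32851 windows of the table hold at least 1. Neither window holds TATAAA, which 13.6% of windows hold.

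In neurons Col4a2 stood at 37.0 and 36.9 CPM in ImP 3 and ImP 4, against 45.1 and 42.6 CPM in vehicle 1 and vehicle 2. Col4a1 stood there at 24.8 and 23.6 CPM in ImP 3 and ImP 4, against 28.2 and 27.8 CPM in vehicle 1 and vehicle 2. Neurons held 91.4% of Col4a2 UMIs and 88.3% of Col4a1 UMIs. Both were lower in glia than in neurons, Col4a1 (log2 fold change -1.42, SE 0.10, adjusted p = 7.52e-09) and Col4a2 (log2 fold change -1.69, SE 0.093, adjusted p = 3.41e-10). Col4a1 was among the 5 highest members of fibroblast and vascular nuclei, at 113 and 195 CPM in ImP 3 and ImP 4, against 124 and 198 CPM in vehicle 1 and vehicle 2, from 13 and 24 UMIs in ImP 3 and ImP 4, against 5 and 13 UMIs in vehicle 1 and vehicle 2. There it was higher than in neurons (log2 fold change 2.12, SE 0.30, adjusted p = 5.09e-11), a call that was lost in nuclei with at least 1000 genes (log2 fold change 1.29, adjusted p = 0.0778), whereas Col4a2 did not pass against neurons (log2 fold change 0.17, SE 0.38, adjusted p = 0.789). The endothelium, whose basement membrane is rich in these chains, held 14 Col4a1 and 9 Col4a2 UMIs in 78 nuclei, or 158 and 102 CPM with the libraries pooled.

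Col4a5 and Col4a6, chains of other type IV networks and themselves neighbours on the X chromosome, had another distribution. Col4a5 was among the 5 highest members in glia, at 23.2 and 40.1 CPM in ImP 3 and ImP 4, against 29.7 and 29.2 CPM in vehicle 1 and vehicle 2, and in fibroblast and vascular nuclei, at 218 and 89.4 CPM in ImP 3 and ImP 4, against 223 and 183 CPM in vehicle 1 and vehicle 2. Its level was 3.94 ± 0.767 CPM in neurons, and it was higher in glia (log2 fold change 2.89, SE 0.11, adjusted p = 3.60e-12) and in fibroblast and vascular nuclei (log2 fold change 4.91, SE 0.42, adjusted p = 2.19e-30). Within glia it was high in tanycytes (229 ± 74.2 CPM) and astrocytes (61.6 ± 7.90 CPM). Col4a6 stood in fibroblast and vascular nuclei at 131 and 48.8 CPM in ImP 3 and ImP 4, against 198 and 289 CPM in vehicle 1 and vehicle 2. It averaged 1.36 ± 0.390 CPM in neurons (log2 fold change 6.24, SE 0.49, adjusted p = 1.55e-35). Col4a3, known from the kidney filter, was higher in tanycytes than in other glia (log2 fold change 5.29, SE 0.49, adjusted p = 3.42e-25) and in fibroblast and vascular nuclei than in glia (log2 fold change 3.30, SE 0.62, adjusted p = 1.42e-06). Col4a4 was lower in glia than in neurons (log2 fold change -0.54, SE 0.18, adjusted p = 0.0131), a call lost without vehicle 1 (-0.42) or vehicle 2 (-0.48).

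Of the short-chain network and beaded filament collagens, Col8a1 and most type VI chains were lower in glia than in neurons (-4.25 on the log2 scale for Col8a1), and Col10a1, known from growing cartilage, was higher (log2 fold change 1.18, SE 0.34, adjusted p = 0.00568). Col8a1, a network collagen of vessel walls and of a membrane of the cornea, averaged 155 ± 94.6 CPM in fibroblast and vascular nuclei, 1.26 ± 0.499 CPM in glia and 23.1 ± 3.23 CPM in neurons. It was higher in fibroblast and vascular nuclei than in glia (log2 fold change 6.58, SE 0.50, adjusted p = 5.51e-37) and than in neurons (log2 fold change 2.37, SE 0.30, adjusted p = 9.34e-14). Of the 6 type VI chains, which form beaded filaments in connective tissue and muscle, 5 were lower in glia than in neurons and Col6a3 was higher (log2 fold change 0.79, SE 0.26, adjusted p = 0.0155), a call lost without vehicle 1 (0.72) or ImP 4 (0.69). Col6a1, Col6a2 and Col6a3 were higher in fibroblast and vascular nuclei than in neurons, by 3.33, 2.89 and 3.28 on the log2 scale, on 10, 7 and 6 UMIs there. For Col6a2 and Col6a3 the call was lost without ImP 3 (2.34 and 2.93) and without ImP 4 (2.83 and 3.06).

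The fibril-associated collagens had no common pattern: Col19a1 was lower in glia than in neurons, the type IX chains were higher in oligodendrocyte precursors than in other glia, and Col12a1 was higher in fibroblast and vascular nuclei than in glia. Col19a1, which in the mouse hippocampus is made by interneurons and acts in the formation of inhibitory synapses, was among the 5 highest neuronal members, at 25.05 and 18.2 CPM in ImP 3 and ImP 4, against 28.3 and 27.1 CPM in vehicle 1 and vehicle 2. It averaged 1.25 ± 0.633 CPM in glia (log2 fold change -4.33, SE 0.20, adjusted p = 3.73e-11). It had 0 UMIs in fibroblast and vascular nuclei, against 4041 in neurons, so it was at least 2.82-fold lower there (3 counts over the class). Col12a1, found in tendon and on other fibrils, was lower in glia than in neurons (log2 fold change -2.61, SE 0.27, adjusted p = 4.47e-07) and higher in fibroblast and vascular nuclei than in glia (log2 fold change 4.42, SE 0.69, adjusted p = 2.42e-09). Against neurons it was higher there as well (log2 fold change 1.66, SE 0.57, adjusted p = 0.0189), on 14 UMIs, a call lost without vehicle 1 (1.48) or vehicle 2 (0.92). The 3 chains of type IX collagen, a partner of cartilage fibrils, were each higher in oligodendrocyte precursors than in other glia. For Col9a1 the log2 fold change was 2.73 (SE 0.17, adjusted p = 1.53e-12), with a mean of 73.7 ± 10.3 CPM in precursors. Col9a2 and Col9a3 were higher there by 2.19 and 1.30 on the log2 scale. Col9a1 and Col9a3 had 0 UMIs in fibroblast and vascular nuclei, against 375 and 388 in glia, so they were at least 2.35-fold and 2.43-fold lower there. The neuronal share of UMIs was 86.2% for Col9a2, 63.8% for Col9a3 and 20.1% for Col9a1. Col16a1 averaged 32.3 ± 5.55 CPM in precursors, 22.5 ± 5.29 CPM in astrocytes and 24.3 ± 4.57 CPM in neurons.

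The transmembrane collagens gave the sharpest contrast among glial classes. Col25a1 encodes a neuronal membrane collagen whose shed part is found in amyloid plaques and which in the mouse is needed for motor axons to innervate muscle, and Col23a1 is a relative in the same family. Tanycytes are the glia that line the floor of the third ventricle. The promoter windows of both genes are shown because both were high in tanycytes, at chr3:130180595-130180894 for Col25a1 and chr11:51289670-51289969 for Col23a1 (GRCm38.p6, both on the plus strand); the longest stretch that occurs again in the same window is in capitals.
Col25a1: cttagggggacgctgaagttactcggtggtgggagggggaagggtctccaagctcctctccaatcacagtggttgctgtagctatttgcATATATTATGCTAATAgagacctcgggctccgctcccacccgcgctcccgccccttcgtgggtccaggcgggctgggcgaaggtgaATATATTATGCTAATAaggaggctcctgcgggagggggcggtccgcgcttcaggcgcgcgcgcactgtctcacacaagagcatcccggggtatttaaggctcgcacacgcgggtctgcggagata
Col23a1: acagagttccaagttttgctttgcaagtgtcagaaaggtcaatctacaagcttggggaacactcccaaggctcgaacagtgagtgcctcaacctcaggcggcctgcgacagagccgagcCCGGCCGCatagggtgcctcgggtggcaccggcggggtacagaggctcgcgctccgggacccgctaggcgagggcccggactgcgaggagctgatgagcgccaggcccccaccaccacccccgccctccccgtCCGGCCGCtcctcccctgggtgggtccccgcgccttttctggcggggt
In the Col25a1 window this repeat is 16 bases long and occurs 2 times, and 5.80% of all windows hold a repeat at least as long; in the Col23a1 window it is 8 bases, below the median of 9. The GC box GGGCGG was matched 2 times in Col25a1 and 1 time in Col23a1, and neither holds TAATTA, a homeodomain core that 5.29% of windows hold on either strand.

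Col25a1 stood in tanycytes at 4034 and 7312 CPM in ImP 3 and ImP 4, against 1956 and 8284 CPM in vehicle 1 and vehicle 2, from 166 and 1458 UMIs in ImP 3 and ImP 4, against 105 and 908 UMIs in vehicle 1 and vehicle 2. ImP 4 and vehicle 2 were high, ImP 3 and vehicle 1 were low, and the groups overlapped. The library names of ImP 4 and vehicle 2 share their start, as do those of ImP 3 and vehicle 1. The split thus follows that label, and what the label marks is not stated. In tanycytes against other glia, a comparison added after the levels were seen, the log2 fold change was 6.66 (SE 0.26, adjusted p = 1.65e-143). For Col23a1 the tanycyte level was 2163 and 1680.0 CPM in ImP 3 and ImP 4, against 2440.2 and 2554 CPM in vehicle 1 and vehicle 2, and the log2 fold change was 5.31 (SE 0.22, adjusted p = 6.54e-129). Of the members, 17 passed the filter in this comparison, 8 were higher and 1 lower, where 19.6% of 13122 genes differed, 7.16% higher and 12.4% lower; Col4a6, Col4a5, Col5a2, Col11a1 and Col27a1 were higher too, by 4.84, 3.02, 2.94, 2.64 and 1.74 on the log2 scale. A Col25a1 UMI was found in 140 of 185 tanycytes (75.7%) and 14348 of 36342 neurons (39.5%). In astrocytes, oligodendrocytes, their precursors, microglia or macrophages, endothelial and mural nuclei the share lay between 3.45% and 5.85%. Median depths there were 1030.0 to 2161 UMIs, against 2009 in tanycytes. Whether this share is background was not tested. The share in fibroblasts is given by library below.

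The glial level of Col25a1 was uneven between libraries, at 62.9 and 340.4 CPM in ImP 3 and ImP 4, against 52.9 and 267 CPM in vehicle 1 and vehicle 2. Tanycytes numbered 19 and 91 in ImP 3 and ImP 4, against 25 and 50 in vehicle 1 and vehicle 2, so both the level and the number were higher in ImP 4 and vehicle 2 than in ImP 3 and vehicle 1, while ImP 3 had the higher level and the lower number of the other two. With tanycytes left out, glial Col25a1 was 28.7 and 53.5 CPM in ImP 3 and ImP 4, against 28.1 and 54.1 CPM in vehicle 1 and vehicle 2. Col23a1, also among the 5 highest glial members, stood with tanycytes at 53.1 and 115 CPM in ImP 3 and ImP 4, against 73.3 and 118 CPM in vehicle 1 and vehicle 2. Without tanycytes it stood at 34.96 and 50.6 CPM in ImP 3 and ImP 4, against 42.4 and 53.6 CPM in vehicle 1 and vehicle 2. In all glia against neurons Col25a1 was lower (log2 fold change -1.11, SE 0.33, adjusted p = 0.00737), a call lost without ImP 3 (-0.77, adjusted p = 0.0683), by DESeq2 (-1.27, adjusted p = 0.0623) and in nuclei with at least 1000 genes (-0.61), and Col23a1 was higher (log2 fold change 2.65, SE 0.12, adjusted p = 2.41e-11). In neurons Col25a1 stood at 290.2 and 301 CPM in ImP 3 and ImP 4, against 307 and 307 CPM in vehicle 1 and vehicle 2. As UMIs, not corrected for gene length, it made up between 44.7% and 49.5% of neuronal collagen UMIs a library. Col23a1 was among the 5 highest members in fibroblast and vascular nuclei, at 139.7 and 154 CPM in ImP 3 and ImP 4, against 223 and 137 CPM in vehicle 1 and vehicle 2, and higher there than in neurons (log2 fold change 3.06, SE 0.33, adjusted p = 1.24e-18). Col13a1, a membrane collagen of the neuromuscular junction, was higher in that class as well (log2 fold change 5.29, SE 0.68, adjusted p = 1.94e-13), on 17 UMIs.

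**Figure D3:**
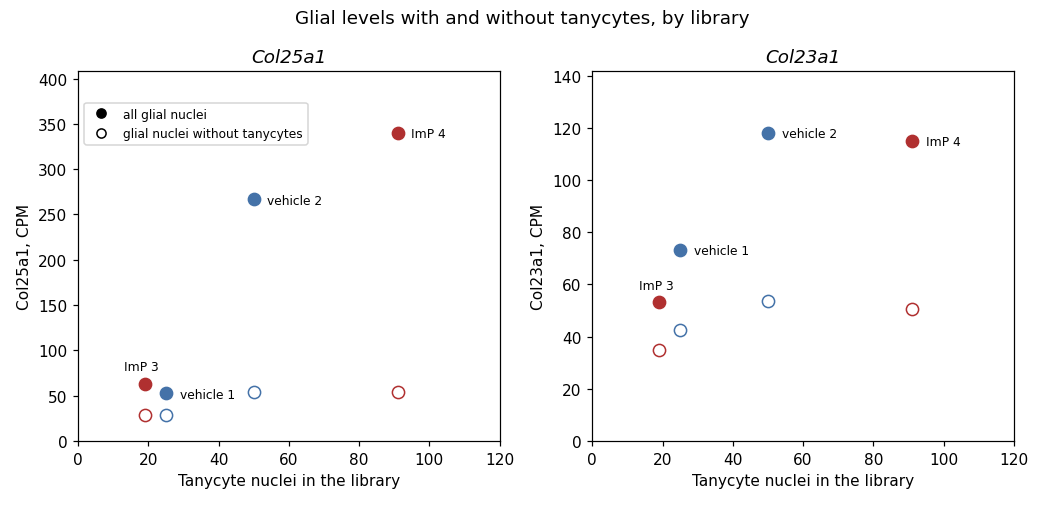
CPM of Col25a1 and Col23a1 in glial nuclei of each library (vertical axis) against the number of tanycyte nuclei in that library (horizontal axis), red for ImP and blue for vehicle, filled with and open without tanycytes. Col25a1 is high in ImP 4 and vehicle 2, the libraries with 91 and 50 tanycytes, and without tanycytes it lies between 28.1 and 54.1 CPM.

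Of the multiplexins, which carry an endostatin-type end fragment, Col15a1 was higher in microglia or macrophages than in other glia (log2 fold change 3.74, SE 0.49, adjusted p = 4.57e-10) and in fibroblast and vascular nuclei than in neurons (log2 fold change 3.53, SE 0.58, adjusted p = 1.24e-08). Of its 23 UMIs in fibroblast and vascular nuclei 18 were in ImP 4, and without ImP 4 the call was lost (2.20, adjusted p = 0.169). Col18a1 was lower in glia than in neurons (log2 fold change -1.97, SE 0.19, adjusted p = 2.04e-07) and, within glia, higher in oligodendrocyte precursors (log2 fold change 3.11, SE 0.48, adjusted p = 8.60e-06). Col26a1 was lower in glia than in neurons (log2 fold change -2.11, SE 0.16, adjusted p = 1.27e-08) and higher in precursors than in other glia (log2 fold change 4.13, SE 0.42, adjusted p = 1.05e-08). Col7a1, the anchoring fibril collagen of skin, was lower in glia (log2 fold change -1.36, SE 0.32, adjusted p = 0.00138).

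The other 10 members were low in neurons, with mean levels between 0.676 and 4.45 CPM, and 75.0% to 94.3% of their UMIs lay there. Col24a1, a fibrillar chain, and the fibril-associated Col14a1 were lower in glia than in neurons, with log2 fold changes of -1.31 and -1.51, and so were Col28a1, Col6a5 and Col6a6, at -1.82, -2.01 and -2.37. In nuclei with at least 1000 genes the calls of Col24a1, Col28a1 and Col6a6 were lost (-0.64, -1.23 and -1.69). Col2a1, the main chain of cartilage, was lower as well (log2 fold change -1.003, SE 0.37, adjusted p = 0.0262), a call lost without ImP 3 (-0.75) or ImP 4 (-0.83) and by DESeq2. Col20a1, Col22a1, Col5a1 and Col8a2 did not pass, at 0.11, -0.59, -0.26 and -0.25. Col8a2, a network chain of the cornea, was higher in fibroblast and vascular nuclei than in neurons (log2 fold change 4.21, SE 0.98, adjusted p = 1.72e-04), and so was Col5a1, a partner of Col5a2 (log2 fold change 3.28, SE 1.03, adjusted p = 0.00852), on 6 and 5 UMIs. Without ImP 4 the Col5a1 call was lost (1.61), and in nuclei with at least 1000 genes so was that of Col8a2 (3.58). Col17a1, the transmembrane collagen of skin attachment plaques, had 64 UMIs in neurons and 13 in glia.

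Within glia, the count of members that differed was read against all genes in each class. In astrocytes against other glia 18 members passed the filter, 7 were higher and 5 lower, where 48.6% of 13373 genes differed, 22.2% higher and 26.4% lower. In oligodendrocytes 17 passed, 1 was higher and 13 lower, where 54.0% of 13315 genes differed, 25.6% higher and 28.4% lower. The 1 higher member was Col9a1 (log2 fold change 0.51, SE 0.16, adjusted p = 0.0119), a call lost without vehicle 1 (0.42) or ImP 3 (0.40). In oligodendrocyte precursors 17 passed, 12 were higher and 5 lower, where 40.8% of 13150 genes differed, 19.8% higher and 21.0% lower. In microglia or macrophages 15 passed, 2 were higher and 13 lower, where 39.2% of 13424 genes differed, 17.2% higher and 21.9% lower. Fibroblasts against endothelial and mural nuclei, and endothelial against mural nuclei, had 0 members past the filter on low counts, so no member was tested there; all the genes that passed it numbered 462 and 161, of which 35.7% and 52.2% differed.

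Among neurons, 9 collagen genes differed between the main transmitter classes and 20 did not pass. In GABAergic against glutamatergic nuclei 29 members passed the filter, 3 were higher and 6 lower, where 13.2% of 15837 genes differed, 5.08% higher and 8.13% lower. Col25a1 averaged 385 ± 22.1 CPM in GABAergic and 221 ± 19.5 CPM in glutamatergic nuclei (log2 fold change 0.76, SE 0.048, adjusted p = 1.63e-11), and every GABAergic value lay above every glutamatergic one. Col4a5 and Col9a2 were also higher in GABAergic nuclei, by 0.84 and 0.64 on the log2 scale, calls lost by DESeq2 for both, and without vehicle 2 for Col4a5 (0.75) and without vehicle 1 for Col9a2 (0.48). Col19a1 averaged 19.5 ± 2.95 CPM in GABAergic and 36.5 ± 5.17 CPM in glutamatergic nuclei (log2 fold change -0.96, SE 0.084, adjusted p = 4.75e-09). Col24a1, Col12a1 and Col18a1 were lower in GABAergic nuclei, with log2 fold changes of -1.84, -1.66 and -1.55, and so were Col8a1 and Col16a1, at -0.67 and -0.62. Col4a1 and Col4a2 did not pass, at -0.20 (adjusted p = 0.142) and -0.091 (adjusted p = 0.479).

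ImP was compared with vehicle first over all kept nuclei and in neurons. Summed over the 44 genes, collagen stood over all nuclei at 610.2 and 661 CPM in ImP 3 and ImP 4, against 677 and 677 CPM in vehicle 1 and vehicle 2. In neurons it stood at 612 and 607 CPM in ImP 3 and ImP 4, against 686 and 648 CPM in vehicle 1 and vehicle 2, lower in both ImP libraries. No member passed edgeR's test in either comparison, with 0 of 44 over all nuclei, where 0.0047% of 21287 genes passed, and 0 of 43 in neurons, where 0.00488% of 20484 genes passed. At an unadjusted p under 0.05 there were 7 members in each, of 1739 and 1407 genes. DESeq2 called 1 member over all nuclei, Col1a2, where it called 2.19% of 17160 genes, and 0 in neurons, where it called 1.58% of 15718. The median log2 fold change of the tested members was -0.094 over all nuclei and -0.18 in neurons, against -0.011 and -0.0087 for all genes. Both ImP libraries lay below both vehicle libraries for 17 of the 43 members tested in neurons, and above them for 4, where the same held for 20.8% and 17.0% of all genes tested. Over all nuclei it held for 12 and 6 of the 44 members, and for 21.3% and 18.9% of all genes.

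In neurons the 3 members of smallest p were low in the ImP libraries. Over all nuclei this held for the first 2 by p, Col6a4 and Col4a2. Col6a4, a beaded filament chain, stood in neurons at 0.995 and 0.929 CPM in ImP 3 and ImP 4, against 2.30 and 1.69 CPM in vehicle 1 and vehicle 2. Over all nuclei it stood at 0.882 and 0.781 CPM in ImP 3 and ImP 4, against 2.08 and 1.55 CPM in vehicle 1 and vehicle 2. The groups did not overlap, and the test gave no call in neurons (log2 fold change -1.03, SE 0.25, adjusted p = 0.349) or over all nuclei (log2 fold change -1.11, SE 0.24, adjusted p = 0.292). For Col4a2 the values over all nuclei were 33.9 and 33.7 CPM in ImP 3 and ImP 4, against 41.7 and 39.1 CPM in vehicle 1 and vehicle 2, and both ImP libraries were low here too, as they were in neurons. Neither passed, over all nuclei (log2 fold change -0.25, SE 0.065, adjusted p = 0.338) or in neurons (log2 fold change -0.23, SE 0.067, adjusted p = 0.450). Col16a1 stood in neurons at 22.3 and 19.9 CPM in ImP 3 and ImP 4, against 30.6 and 24.5 CPM in vehicle 1 and vehicle 2 (log2 fold change -0.36, SE 0.11, adjusted p = 0.523). Without ImP 3 the neuronal test called 4 members lower in ImP 4 than in vehicle, Col19a1, Col16a1, Col14a1 and Col6a4, with the single ImP library assumed to vary like the vehicle libraries; that fit called 5.44% of all 21063 genes, against 1 gene with both ImP libraries.

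Col1a2 ran the other way. Over all nuclei it stood at 2.59 and 5.24 CPM in ImP 3 and ImP 4, against 1.56 and 1.82 CPM in vehicle 1 and vehicle 2, both ImP libraries were high, and the log2 fold change was 1.22 (SE 0.35, adjusted p = 0.382). Without ImP 4 the log2 fold change was 0.62. In ImP 4 the 317 pituitary nuclei held 69 of its 268 UMIs, and with pituitary nuclei left out the levels were 2.59 and 3.94 CPM in ImP 3 and ImP 4, against 1.53 and 1.82 CPM in vehicle 1 and vehicle 2, with a log2 fold change of 0.97 (adjusted p = 0.334). With fibroblast and vascular nuclei left out it was 1.22. The DESeq2 call had a log2 fold change of 1.23 and an adjusted p of 0.0377. Col3a1, next by edgeR's p over all nuclei, was also higher in ImP and did not pass (log2 fold change 1.19, SE 0.36, adjusted p = 0.425).

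In glia no member passed either, with 0 of 23 tested at edgeR's adjusted p, where 0.0% of 15242 genes passed; 0 members and 1723 genes had an unadjusted p under 0.05, and DESeq2 called 0 members and 1.75% of 3717 genes. The median log2 fold change was -0.14 for the tested members and -0.0057 for all genes. The smallest p belonged to Col5a2 (log2 fold change -0.35, SE 0.17, adjusted p = 0.483), whose level was lower in both ImP libraries. Col9a1 followed, at 18.7 and 17.6 CPM in ImP 3 and ImP 4, against 27.3 and 19.3 CPM in vehicle 1 and vehicle 2 (log2 fold change -0.35, SE 0.20, adjusted p = 0.556), and then Col16a1, at 19.3 and 18.2 CPM in ImP 3 and ImP 4, against 26.8 and 20.2 CPM in vehicle 1 and vehicle 2 (log2 fold change -0.32, SE 0.19, adjusted p = 0.575). Over the 23 members both ImP libraries were lower for 6 and higher for 1, these 3 genes among the 6, where this held for 20.7% and 22.5% of all genes. For Col25a1 the log2 fold change was 0.34 (SE 0.74, adjusted p = 0.898); without vehicle 2 the log2 fold change was 1.96 and passed, in a fit that called 4.96% of 16139 genes.

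In fibroblast and vascular nuclei 7 members passed the filter, and Col25a1 was higher in ImP. Col25a1 passed the filter through the ImP libraries, in which it was high, so the call describes this member and supports nothing further. Its level was 838 and 609.7 CPM in ImP 3 and ImP 4, against 74.4 and 122 CPM in vehicle 1 and vehicle 2, from 96 and 75 UMIs in ImP 3 and ImP 4, against 3 and 8 UMIs in vehicle 1 and vehicle 2. Both ImP libraries were high, the groups did not overlap, and the log2 fold change was 2.86 (SE 0.44, adjusted p = 4.18e-04). Both ImP libraries lay higher for 1 of 7 members and lower for 1, where this held for 20.4% and 24.7% of all genes. It was the 1 member called of 7, where 2.79% of 2329 genes were called, 1.12% higher and 1.67% lower, and DESeq2 called it too, with 3.03% of 659 genes. Most of these UMIs were in fibroblast nuclei, 94 and 74 in ImP 3 and ImP 4, against 1 and 7 in vehicle 1 and vehicle 2, and fibroblasts made up 42 of 73 and 47 of 83 nuclei of the class in ImP 3 and ImP 4, against 7 of 33 and 13 of 43 in vehicle 1 and vehicle 2.

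In fibroblasts alone Col25a1 stood at 1143 and 902 CPM in ImP 3 and ImP 4. In vehicle 1 and vehicle 2 it stood at 97.1 and 240.2 CPM. This comparison was added after the data were seen, and edgeR's value lay just under the threshold (log2 fold change 2.50, adjusted p = 0.0491). The fit tested 8 members and called 0.561% of 1248 genes. A Col25a1 UMI was found in 19 of 42 and 9 of 47 fibroblasts of ImP 3 and ImP 4, against 1 of 7 and 2 of 13 of vehicle 1 and vehicle 2. In ImP 4 a single nucleus held 36 of the 74 UMIs, and in ImP 3 the highest nucleus held 15 of 94. The log2 fold change was 1.55 with nuclei of 2 marker classes kept and 2.02 under a stricter gate. Beside it, in these fibroblasts, the 9 tanycyte markers summed to 279.7 and 207 CPM in ImP 3 and ImP 4, against 291 and 172 CPM in vehicle 1 and vehicle 2, with 2 to 4 a library above 0. The 8 neuronal markers summed to 2323 and 2316 CPM in ImP 3 and ImP 4, against 1942 and 2813 CPM in vehicle 1 and vehicle 2, with 3 to 8 a library above 0. The 12 pituitary markers summed to 146 and 3790.1 CPM in ImP 3 and ImP 4, against 194 and 103 CPM in vehicle 1 and vehicle 2, with 1 to 8 a library above 0. The part of other cells' RNA in the result was not tested.

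The other tested members of the class did not pass. Col4a6, given above, lay lower in both ImP libraries (log2 fold change -1.42, SE 0.52, adjusted p = 0.158). Col8a1 stood at 279 and 138 CPM in ImP 3 and ImP 4, against 49.6 and 152 CPM in vehicle 1 and vehicle 2 (log2 fold change 0.96, SE 0.56, adjusted p = 0.456), and its groups overlapped. Col4a5, Col1a2, Col23a1 and Col4a1 had log2 fold changes of -0.32, 0.24, -0.16 and -0.04, with SEs between 0.49 and 0.56. Endothelial and mural nuclei alone had 0 members past the filter. The other 37 members had too few UMIs to be tested in the class.

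**Figure D4:**
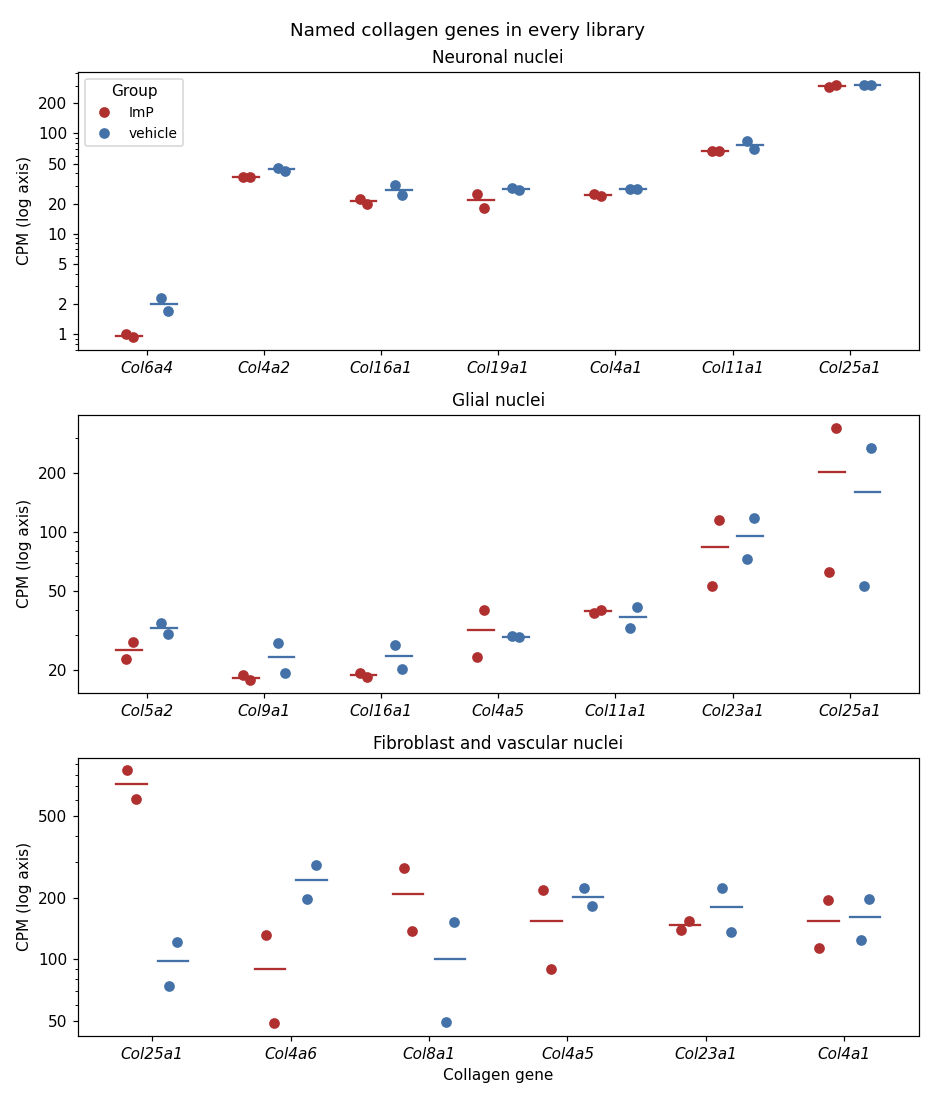
CPM (log axis) of named collagen genes in each library, in neuronal, glial, and fibroblast and vascular nuclei; each point is a library, red for ImP and blue for vehicle, and the line is the mean of 2 libraries. Col25a1 in fibroblast and vascular nuclei stands at 838 and 609.7 CPM in ImP, against 74.4 and 122 CPM in vehicle, and glial Col25a1 overlaps between the groups.

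**Figure D5:**
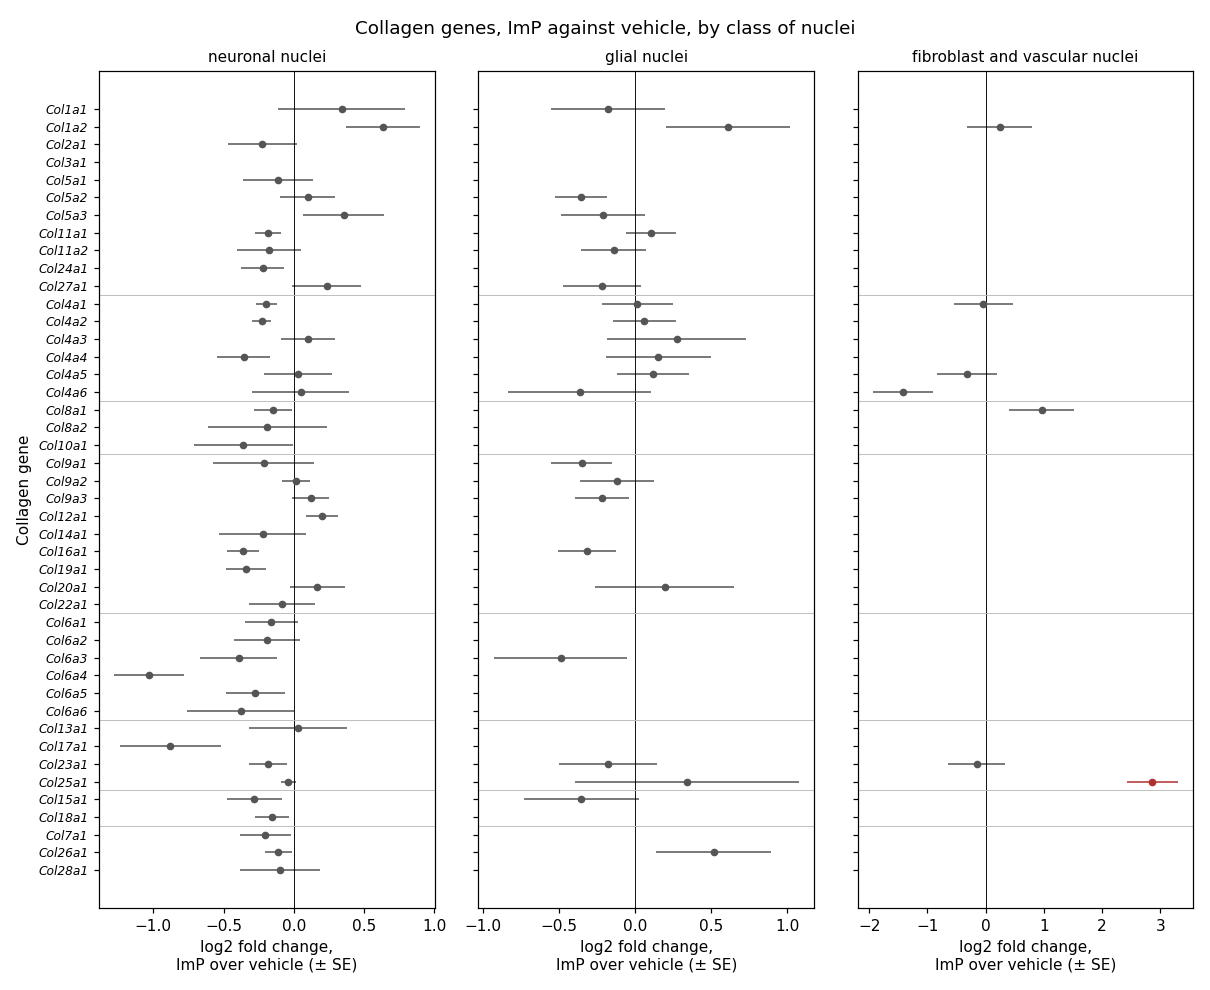
Log2 fold change, ImP over vehicle, with its SE for every collagen gene that passed the filter on low counts in neuronal (43), glial (23) and fibroblast and vascular nuclei (7); horizontal scales differ between panels. Red marks Col25a1 in fibroblast and vascular nuclei (2.86), the member past the threshold, and genes with no point were not tested there.

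The genes that act on collagen were counted in the same comparisons. None of 4 lists had a member called in any ImP comparison by edgeR: 0 of 30 tested genes of collagen assembly and crosslinking over all nuclei, 0 of 11 receptors, 0 of 7 breakdown genes and 0 of 12 basement membrane partners, and likewise 0 in neurons, glia, and fibroblast and vascular nuclei. Their median log2 fold changes over all nuclei were 0.041, 0.044, 0.028 and 0.03, against -0.011 for all genes. Of all genes edgeR called 2.79% in fibroblast and vascular nuclei, 1 gene over all nuclei, 1 in neurons and 0 in glia. Counts of 0 over all nuclei, in neurons and in glia therefore say little about these lists. Between classes their counts were read against all genes. In fibroblast and vascular against neuronal nuclei the assembly genes were 8 higher and 2 lower of 29 tested. The receptors were 6 higher and 0 lower of 11, and the basement membrane partners 9 higher and 0 lower of 12. Of all genes, 9.13% were higher and 14.5% lower. Of the breakdown genes 0 were higher and 1, Mmp16, was lower of 4 tested. The 2 lower assembly genes were Adamts3 and Pcolce2. Pcolce, an enhancer of procollagen cleavage, and Serpinh1, the collagen chaperone, were higher by 6.68 and 4.03 on the log2 scale, the receptors Itga1 and Ddr2 by 5.69 and 7.69, and the partners Lama2, a laminin chain, and Nid1, a linker of laminin to type IV collagen, by 5.50 and 7.84. In glia against neurons the counts were 13 higher and 7 lower of 28 for assembly, 6 higher and 4 lower of 11 for receptors, 4 higher and 1 lower of 7 for breakdown and 6 higher and 2 lower of 11 for partners, where 36.2% of all genes were higher and 35.7% lower, 71.9% in all. Plod1, a lysyl hydroxylase, was higher in glia by 2.53, Ddr1, a receptor kinase, by 1.26, Mmp14, a membrane collagenase, by 3.95 and Lama2 by 4.71, whereas Adamts3, a procollagen protease, was lower (-2.14).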

How the data were processed

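The authors deposited counts of UMIs per gene and nucleus barcode. Cell Ranger 8.0.1, Seurat 5.0.0 and the build GRCm39 are named in the submitters' processing notes. The libraries were 10x Genomics 3′ libraries of about 10000 loaded nuclei, aimed at 40000 read pairs a nucleus, per the labels' protocols. Whether intronic reads were counted is not stated there. Each table holds 48060194 to 51945297 UMIs.

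Nuclei with at least 500 genes and at most 5% mitochondrial UMIs were kept. A nucleus was classed when the marker UMIs of a single class passed a minimum per 10000 UMIs (60 for neurons and 10 to 25 for the other classes, 200 for pituitary) on 2 to 4 markers; markers found in over 25% of nuclei were not counted outside neurons. Nuclei passing 2 gates were set aside as possible doublets, and no doublet caller was run. They were 405 and 523 in ImP 3 and ImP 4, against 196 and 268 in vehicle 1 and vehicle 2; 1355 and 1562 nuclei, against 640 and 1041, passed no gate. A nucleus was GABAergic or glutamatergic with at least 2 UMIs of its markers and 0 of the other. The gates, members and lists were chosen with earlier results of these data known.

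UMIs were summed per library and class, filtered at a minimum count of 10 and tested with edgeR 4.0.16 (R 4.3.3; TMM, quasi-likelihood, Benjamini-Hochberg over all genes, threshold 0.05), with the library as a block between classes. SEs were taken from the test statistic. The test was first tested on simulated counts. Alternatives were DESeq2 1.42.0, RLE factors, no filter, each library left out, deeper nuclei (at least 1000 genes, at most 2% mitochondrial UMIs), a stricter gate, mixed nuclei kept and a replicate block; leaving out pituitary nuclei or tanycytes, and splitting fibroblasts from vessels, were added after the data were seen. Libraries are the replicates (2 a group). The labels do not say that they are separate animals, so p-values measure the spread between libraries. With 2 libraries a group, edgeR estimates that spread in part from other genes. A p-value therefore does not rest on the gene's own spread alone. Intervals and limits of 0 counts (3 counts) cover counting error only. Values in every library are given for the 5 members of highest mean CPM in each broad class, the 3 of smallest p in each ImP comparison and any member past the threshold there; other members appear by class, and those named beyond the rule were chosen after their values were seen. Promoters were taken from RefSeq (GRCm38.p6), where 35 of the 44 members matched by symbol, with coordinates of that build only.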

Additional observations from a re-analysis of the deposited data

Results flagged for a closer look

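For Col25a1 the ImP libraries stood on opposite sides of the vehicle libraries in different classes. Both ImP libraries lay above both vehicle libraries in fibroblast and vascular nuclei and below them in neurons. The neuronal values were 290.2 and 301 CPM in ImP 3 and ImP 4, against 307 and 307 CPM in vehicle 1 and vehicle 2. The log2 ratio of ImP over vehicle, with the libraries of a group pooled, was 2.79 in fibroblast and vascular nuclei and -0.056 in neurons, a difference of 2.85. This difference was not tested.

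For Col4a2 the same held. In fibroblast and vascular nuclei it stood at 87.3 and 65.0 CPM in ImP 3 and ImP 4, against 24.8 and 45.6 CPM in vehicle 1 and vehicle 2, from 10 and 8 UMIs in ImP 3 and ImP 4, against 1 and 3 UMIs in vehicle 1 and vehicle 2, and in neurons both ImP libraries were lower. The log2 ratios were 1.01 and -0.25 in fibroblast and vascular nuclei and in neurons, a difference of 1.25, which was not tested.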

How the results depend on the processing

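Of 1437 values of members called between classes under the alternatives, 1358 kept direction and side of the threshold, 77 lost the call and 2 reversed, Col25a1 in fibroblast and vascular against glial nuclei without ImP 3 (-0.10, within a range of -0.10 to 1.74 over the libraries left out) and Col9a1 in oligodendrocytes against other glia in nuclei with at least 1000 genes (-0.049). In those deeper nuclei, which are fewer, 13 members differed between fibroblast and vascular and neuronal nuclei, 6 between fibroblast and vascular and glial nuclei and 8 between microglia and other glia, against 21, 14 and 15. Between fibroblasts and the vascular classes 7 members were called without a filter on low counts. With nuclei of 2 classes kept 1 was called, against 0 in the test described above. Endothelial against mural nuclei gave no value in the deeper nuclei, for want of nuclei. None of these member counts was read against the share of all genes called in the same fit. They therefore show nothing particular to collagen genes. For ImP against vehicle, DESeq2 called 1 member over all nuclei, with 2.19% of all genes. Leaving out 1 library gave 0 to 4 members in neurons and 0 to 1 in glia, in fits that called 0 to 1146 and 2 to 800 genes, against 1 and 0. For these changes the cause was not tested. The library names share their starts in pairs across the groups, ImP 3 with vehicle 1 and ImP 4 with vehicle 2. The labels do not say what the name marks. The deviations of same-named libraries correlated over genes (r = 0.338), a single value, since 2 libraries a group deviate equally and oppositely from their mean. With that replicate block Col1a2 (adjusted p = 0.0292), Col16a1 (adjusted p = 0.0299) and Col6a4 (adjusted p = 0.0400) were called over all nuclei, 3 members where 3.71% of genes were. It called 1 member in neurons, Col16a1 (adjusted p = 0.0465), 1 in glia, Col25a1 (adjusted p = 0.0439), and 1 in fibroblast and vascular nuclei, Col25a1 (adjusted p = 0.0207), where it called 2.32%, 8.14% and 0.816% of genes in this order of classes. Depth limits the rare classes: in fibroblast and vascular nuclei 1 UMI is 8.73 CPM in ImP 3 and 8.13 in ImP 4, against 24.8 in vehicle 1 and 15.2 in vehicle 2.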

Other observations

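Ependymal nuclei, the ciliated cells of the ventricle wall, were in none of the comparisons between classes and entered the ImP comparison only in the sum over all kept nuclei. They numbered 14 and 11 in ImP 3 and ImP 4, against 20 and 17 in vehicle 1 and vehicle 2. Col23a1 stood there at 474 and 871 CPM in ImP 3 and ImP 4, against 326 and 2296 CPM in vehicle 1 and vehicle 2, and Col5a2 at 189.6 and 249 CPM in ImP 3 and ImP 4, against 209.5 and 351 CPM in vehicle 1 and vehicle 2, from 117 and 30 UMIs over the 4 libraries. Col25a1, which was high in tanycytes, had 2 UMIs in ependymal nuclei. Nuclei of no class or of 2 classes held 37.8% of Col23a1 and 36.7% of Col3a1 UMIs, against 6.39% of the UMIs of all genes.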
